A study of Mus musculus with 6 samples.

Results

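The Sox genes encode transcription factors with an HMG box, the DNA-binding domain they share with the sex-determining factor SRY, and 10 of them are described here in mouse neural stem cells with and without the signal of a Spot14 green fluorescent protein (GFP) reporter. The genes are Sox1, Sox2 and Sox3 of group B1, Sox21 of group B2, Sox4 and Sox11 of group C, Sox5 and Sox6 of group D, and Sox8 and Sox9 of group E. Every probe set annotated to exactly 1 of these symbols was taken, which gave 36 of 45101 probe sets. Where a gene had several, the one with the highest mean signal over the 6 arrays stood for it, and all 10 were among the 10531 genes tested of 18193 genes with a probe set.

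The study hybridised total RNA of Spot14 GFP positive cells (3 arrays) and Spot14 GFP negative cells (3 arrays) to Affymetrix mouse arrays, and its labels call the replicates biological. Spot14, encoded by Thrsp, is a protein known from lipogenic tissues, and the title of the series concerns lipogenesis by fatty acid synthase in adult neural stem cells. Both groups are defined by the GFP status of that reporter, and the labels give no further allele, agent, age, culture or sorting step. Values are on a log2 scale, so that a difference of 1 is 2-fold, and log2 4 was taken as the edge of background.

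SOX proteins bend DNA at short sites rich in A and T and act with partner factors, so that the same site can be read differently in different cells. In the nervous system the B1 factors are known for keeping progenitors undifferentiated, SOX21 for opposing them, the C factors for switching on neuronal genes, the D factors for modulating other SOX proteins, and the E factors for glial fate.

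No Sox gene passed the test between the groups. Of the 10 genes 0 were higher and 0 lower at a limma adjusted p under 0.05, where 2.35% of all tested genes were higher and 2.11% lower (4.46% in either direction). Before adjustment limma gave Sox1 (higher) and Sox3 (lower) a p under 0.05, 1 gene in each direction, against 9.92% and 8.28% of all tested genes (18.2% together). The 3 arrays of one group lay wholly above or below those of the other for 5 of the 10 genes, with Sox1, Sox2, Sox5 and Sox9 on the higher side in GFP positive cells and Sox3 on the lower side. Of all tested genes 25.3% were separated in this way (13.8% higher and 11.5% lower), and with 10 genes the count of 5 was not tested. For such a gene the exact 2-sided permutation test gives p = 0.1, the smallest that 3 against 3 arrays allows. The median difference of the 10 genes was 0.19, beside 0.0049 for all tested genes, and the range was −0.84 to 0.62. Precision here is set by how few arrays there were. The limma p-values, SEs and intervals combine the gene's own spread between these samples with a spread estimated over all genes or probe sets in the fit. Since RNA came from many cells at once, fewer cells of a type and less RNA per cell cannot be told apart.

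**Figure D1:**
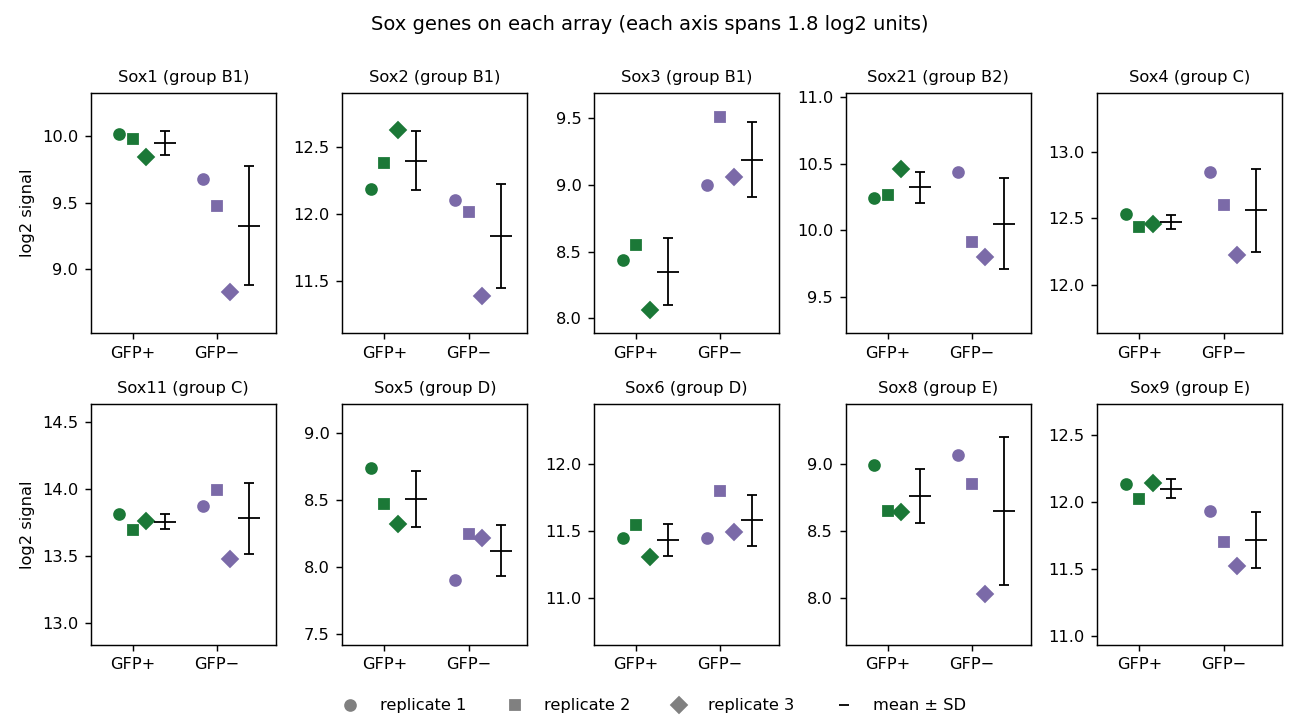
Log2 signal of the 10 Sox genes on each of the 6 arrays, GFP positive (green, left) and GFP negative (violet, right) in each panel; symbols mark replicates and the black bar is the mean ± SD (n = 3). Sox1, Sox2, Sox5 and Sox9 have all GFP positive arrays above all GFP negative ones and Sox3 has them below, while the other 5 genes overlap.

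The arrays themselves differed. Across tested genes, which are not independent, correlations between arrays were 0.985 to 0.993 among GFP positive arrays, 0.952 to 0.982 among GFP negative arrays and 0.935 to 0.972 between the groups, and GFP negative replicate 3 gave the lowest values within its group. The SD was larger among GFP negative than GFP positive arrays for 9 of the 10 Sox genes (all but Sox5), and for 80.2% of all tested genes. GFP negative replicate 3 was the lowest array of its group for 7 of the 10 genes, the others being Sox3, Sox5 and Sox6, and for 33.0% of all tested genes. The excess of 3′ over 5′ signal for beta-actin spanned 1.77 to 2.03 (log2) in GFP positive cells and 1.87 to 2.65 in GFP negative cells, highest in GFP negative replicate 2. For Gapdh it spanned 1.23 to 1.32 in GFP positive cells and 1.14 to 2.33 in GFP negative cells, and a fit with the mean of both as a covariate is given below where it moves a value.

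The group B1 genes Sox1 and Sox2 lay to one side and Sox3 to the other. Promoters are shown for Sox1 and Sox2 because these genes shared their direction; each is the 250 bases before the annotated start in RefSeq (GRCm38.p6), with matches to ACAANG, a core SOX motif searched on both strands, in capitals. The Sox1 window is chr8:12395269-12395518 and the Sox2 window chr3:34649745-34649994, both on the + strand.
Sox1: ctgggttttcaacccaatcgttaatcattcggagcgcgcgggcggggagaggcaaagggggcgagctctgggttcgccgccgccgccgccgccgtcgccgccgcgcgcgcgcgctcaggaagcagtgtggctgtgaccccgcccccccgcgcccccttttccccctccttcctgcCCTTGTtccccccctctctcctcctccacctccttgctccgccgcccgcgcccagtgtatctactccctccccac
Sox2: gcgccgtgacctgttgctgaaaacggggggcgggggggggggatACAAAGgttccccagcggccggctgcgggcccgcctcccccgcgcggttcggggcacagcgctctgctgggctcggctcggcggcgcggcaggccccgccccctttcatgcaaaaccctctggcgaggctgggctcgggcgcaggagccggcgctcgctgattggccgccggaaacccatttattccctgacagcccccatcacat
Each window held 1 match, beginning 75 bases before the start in Sox1 (on the opposite strand) and 206 bases before it in Sox2. Of all 32851 promoter windows of this length 36.3% held a match, so that a match is common.

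Sox2, a factor required for neural stem cell maintenance, measured 12.19, 12.38 and 12.62 in GFP positive replicates 1, 2 and 3, and 12.10, 12.01 and 11.39 in the GFP negative ones. The groups did not overlap, but the gap between the nearest arrays was 0.09, and GFP negative replicate 3 was the lowest. The means were 12.40 ± 0.22 and 11.83 ± 0.39 (SD, n = 3 each), and their difference was 0.56 (SE 0.25, 95% interval −0.01 to 1.14, limma adjusted p = 0.285). The interval runs from 0.993-fold to 2.20-fold. Without GFP negative replicate 3 the difference was 0.34 (limma adjusted p = 0.259). Sox2 had a single probe set.

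Sox1, which overlaps in function with Sox2 in neural progenitors, measured 10.02, 9.98 and 9.84 in GFP positive cells, and 9.68, 9.47 and 8.83 in GFP negative cells. The groups were apart by 0.16 at their nearest arrays, with GFP negative replicate 3 again the lowest. The means were 9.95 ± 0.09 and 9.33 ± 0.44 (SD, n = 3 each), and their difference was 0.62 (SE 0.25, 95% interval 0.04 to 1.20), with an unadjusted limma p of 0.0394 and an adjusted p of 0.240. Without GFP negative replicate 3 the difference was 0.37 (limma adjusted p = 0.171). The other Sox1 probe set lay at background, at 1.91 ± 0.02 and 1.89 ± 0.02 in GFP positive and GFP negative cells (SD, n = 3 each).

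Sox3, the X-linked member of the group, had the largest difference and the smallest p of the 10 genes. It measured 8.44, 8.55 and 8.07 in GFP positive cells, and 8.998, 9.51 and 9.06 in GFP negative cells. The groups were 0.45 apart at their nearest arrays, the widest gap of the 5 separated genes, and GFP negative replicate 3 did not stand apart here. Group means of 8.35 ± 0.25 and 9.19 ± 0.28 (SD, n = 3 each) differed by −0.84, or 1.79-fold toward GFP negative cells (SE 0.22, 95% interval −1.36 to −0.32). The unadjusted limma p was 0.00643 and the adjusted p 0.0893, above the threshold. The difference was −0.91 without GFP negative replicate 3 (limma adjusted p = 0.0525) and lay between −0.94 and −0.68 whichever array was dropped (adjusted p 0.0525 to 0.335). It passed in 1 of 16 alternatives, with array weights (−0.79, limma adjusted p = 0.0412), which put 0.152 on GFP negative replicate 3 and 8.35 on GFP positive replicate 2 and called 1051 genes higher and 603 lower of the 10531 tested. With the 3′ to 5′ signal as a covariate it was −0.65 (limma adjusted p = 0.343). The other Sox3 probe set lay at background, at 2.05 and 2.06.

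The unlike direction of Sox3 can be read within each array. The log2 signal of Sox2 less that of Sox3 was 3.75, 3.83 and 4.56 in GFP positive cells, and 3.10, 2.50 and 2.33 in GFP negative cells. For Sox1 less Sox3 it was 1.58, 1.43 and 1.78 in GFP positive cells, and 0.68, −0.04 and −0.23 in GFP negative cells. Both had to separate the groups, because Sox1 and Sox2 lay wholly higher in GFP positive cells and Sox3 wholly lower. They are thus no further evidence of a difference. Sox1 less Sox2, by contrast, overlapped, at −2.17, −2.41 and −2.78 in GFP positive cells and −2.42, −2.54 and −2.56 in GFP negative cells. These pairs were chosen after their values were seen and were not tested, and the probe sets differ in brightness, so that only the change between arrays can be read.

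In the RefSeq annotation Sox2 overlaps Sox2ot and Sox1 overlaps Sox1ot. Sox2ot, a long noncoding RNA, measured 7.45, 7.67 and 7.33 in GFP positive cells, and 8.01, 8.07 and 7.95 in GFP negative cells. It lay lower on all GFP positive arrays, on the side opposite to Sox2, and did not pass (−0.53, SE 0.17, limma adjusted p = 0.154).

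Sox21 of group B2, which counteracts the B1 factors during neurogenesis, measured 10.24, 10.26 and 10.46 in GFP positive cells, and 10.44, 9.91 and 9.80 in GFP negative cells. The groups overlapped through GFP negative replicate 1. The difference was 0.27 (SE 0.22, 95% interval −0.24 to 0.78, limma adjusted p = 0.602). It was 0.47 without GFP negative replicate 1 (limma adjusted p = 0.251), 0.15 without GFP negative replicate 3 (0.683) and 0.12 with the 3′ to 5′ covariate (0.903). The second Sox21 probe set differed by 0.35 and overlapped too.

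**Figure D2:**
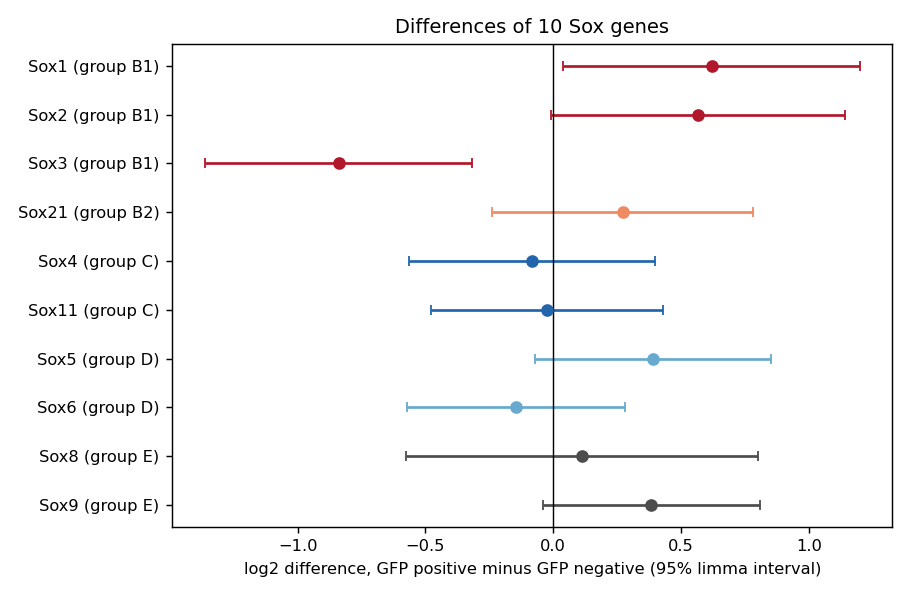
Log2 difference (GFP positive minus GFP negative) of each Sox gene with its 95% limma interval, coloured by Sox group. Only the intervals of Sox1 (0.04 to 1.20) and Sox3 (−1.36 to −0.32) leave out 0, and neither passed after adjustment over all genes.

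The group C genes Sox4 and Sox11 gave the smallest differences. Their promoter windows are printed beside those of Sox1 and Sox2 for comparison, as chr13:28953700-28953949 for Sox4 and chr12:27342719-27342968 for Sox11, both on the − strand (RefSeq, GRCm38.p6). Neither held the ACAANG motif, so no letter is in capitals.
Sox4: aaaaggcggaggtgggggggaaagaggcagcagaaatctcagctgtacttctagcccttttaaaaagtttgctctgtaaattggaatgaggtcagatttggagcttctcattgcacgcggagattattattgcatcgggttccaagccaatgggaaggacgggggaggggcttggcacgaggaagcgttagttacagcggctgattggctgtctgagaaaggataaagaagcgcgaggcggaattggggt
Sox11: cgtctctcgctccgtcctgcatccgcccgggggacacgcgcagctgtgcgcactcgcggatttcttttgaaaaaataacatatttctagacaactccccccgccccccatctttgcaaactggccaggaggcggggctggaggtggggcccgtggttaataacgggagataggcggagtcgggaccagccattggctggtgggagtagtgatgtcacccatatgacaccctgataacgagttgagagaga
Over the family, 8 of the 10 genes had an entry among these promoters, Sox3 and Sox9 being the exceptions, and 8 of their 13 windows held a match. The 13 include 6 alternative starts of Sox6, so the genes with a match were 4, namely Sox1, Sox2, Sox5 and Sox6. The octamer core TGCAAAT, read by the POU partners of SOX2, was in 0 of the 13 windows and in 3.56% of all windows. A missing match says only that these letters are not in the window.

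Sox11, which activates genes of immature neurons, measured 13.81, 13.70 and 13.76 in GFP positive cells, and 13.87, 13.99 and 13.48 in GFP negative cells. The GFP positive arrays lay between the GFP negative ones. The means were 13.76 ± 0.06 and 13.78 ± 0.27 (SD, n = 3 each), and their difference was −0.02 (SE 0.19, 95% interval −0.48 to 0.43, limma adjusted p = 0.971). The interval runs from 0.718-fold to 1.35-fold, so that a change of 2-fold lies outside it. All 6 Sox11 probe sets were above background, 5 with a negative and 1 with a positive difference, from −0.33 to 0.09. The most negative was the only one to separate the groups, at 12.84, 12.82 and 12.89 in GFP positive cells, and 13.15, 13.22 and 13.18 in GFP negative cells (limma adjusted p = 0.382 in the fit of all probe sets, which called 2.37% of them). Its name carries a suffix that marks possible cross-hybridisation.

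Sox4, a close relative of Sox11 with overlapping roles, measured 12.54, 12.44 and 12.45 in GFP positive cells, and 12.85, 12.60 and 12.23 in GFP negative cells. The groups overlapped, and the difference was −0.08 (SE 0.21, 95% interval −0.56 to 0.40, limma adjusted p = 0.889). With GFP negative replicate 3 dropped it was −0.25, and with GFP negative replicate 1 dropped 0.06. Its probe sets differed on GFP negative replicate 3. The brightest had its lowest value there, while 3 dimmer probe sets had their highest value there. The most extreme of these measured 8.03, 7.87 and 7.69 in GFP positive cells, and 7.90, 7.02 and 9.35 in GFP negative cells. Of 8 Sox4 probe sets 3 lay below background and 5 above it, and the differences of the 5 were −0.30 to 0.01.

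Group D factors lack an activation domain of their own. Sox5 measured 8.74, 8.47 and 8.32 in GFP positive cells, and 7.90, 8.25 and 8.22 in GFP negative cells. The GFP positive arrays were higher by at least 0.07, with a difference of 0.39 (SE 0.20, 95% interval −0.07 to 0.85, limma adjusted p = 0.364). All 4 Sox5 probe sets above background were positive, from 0.33 to 0.80, and 3 of them separated the groups. How many of all probe sets separate in this way was not counted. The widest of the 3 measured 6.77, 5.88 and 6.12 in GFP positive cells, and 5.86, 4.84 and 5.68 in GFP negative cells. Its limma adjusted p was 0.323 in the fit of all probe sets. The dimmest of the 3 lay near background, at 4.76, 4.93 and 5.25 in GFP positive cells, and 4.66, 4.27 and 4.64 in GFP negative cells. Its name carries the suffix that marks possible cross-hybridisation.

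Sox6, the partner of Sox5 in cartilage and brain, measured 11.45, 11.55 and 11.30 in GFP positive cells, and 11.45, 11.80 and 11.50 in GFP negative cells. The difference was −0.15 (SE 0.18, 95% interval −0.57 to 0.28, limma adjusted p = 0.754), with overlapping groups. It was −0.04 without GFP negative replicate 2, −0.08 without GFP positive replicate 3 and −0.01 with the 3′ to 5′ covariate. Its other 3 probe sets were positive, from 0.09 to 0.47, and also overlapped, so no direction can be given for Sox6.

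**Figure D3:**
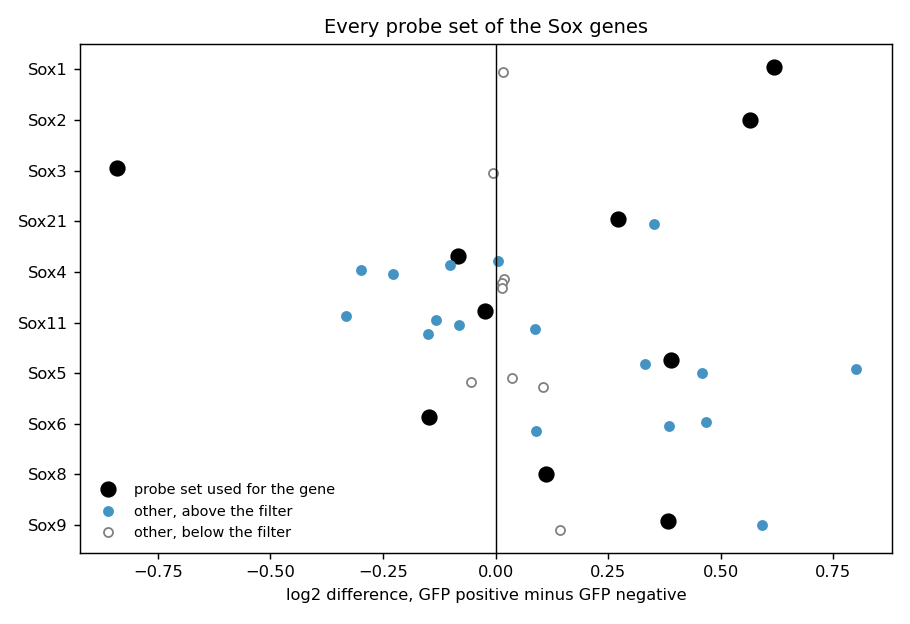
Log2 difference (GFP positive minus GFP negative) of all 36 probe sets of the 10 genes; the large black point is the probe set used for the gene, blue points are others above background and open points those below the filter. The 4 Sox5 probe sets above background lie on the positive side, those of Sox6 on both sides, and those of Sox11 between −0.33 and 0.09.

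Sox9 of group E, which drives the switch of progenitors to glial fate and marks astrocytes, measured 12.14, 12.02 and 12.15 in GFP positive cells, and 11.94, 11.70 and 11.52 in GFP negative cells. The groups were 0.08 apart, and the GFP positive arrays lay within 0.13 of each other. The means were 12.10 ± 0.07 and 11.72 ± 0.21 (SD, n = 3 each), and their difference was 0.38 (SE 0.18, 95% interval −0.04 to 0.81, limma adjusted p = 0.329). Another Sox9 probe set, at 7.60, 7.61 and 8.32 in GFP positive cells and 7.89, 7.34 and 6.53 in GFP negative cells, differed by 0.59 with overlapping groups.

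Sox8, which shares roles with Sox9 and Sox10 in the oligodendrocyte lineage, measured 8.99, 8.65 and 8.64 in GFP positive cells, and 9.07, 8.85 and 8.03 in GFP negative cells. GFP negative replicate 3 was the lowest of the 6 arrays and the other GFP negative arrays were not. The difference was 0.11 (SE 0.29, 95% interval −0.58 to 0.80, limma adjusted p = 0.898) and became −0.20 without that array (limma adjusted p = 0.511), 0.32 without GFP negative replicate 1 and −0.0040 without GFP positive replicate 1.

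**Figure D4:**
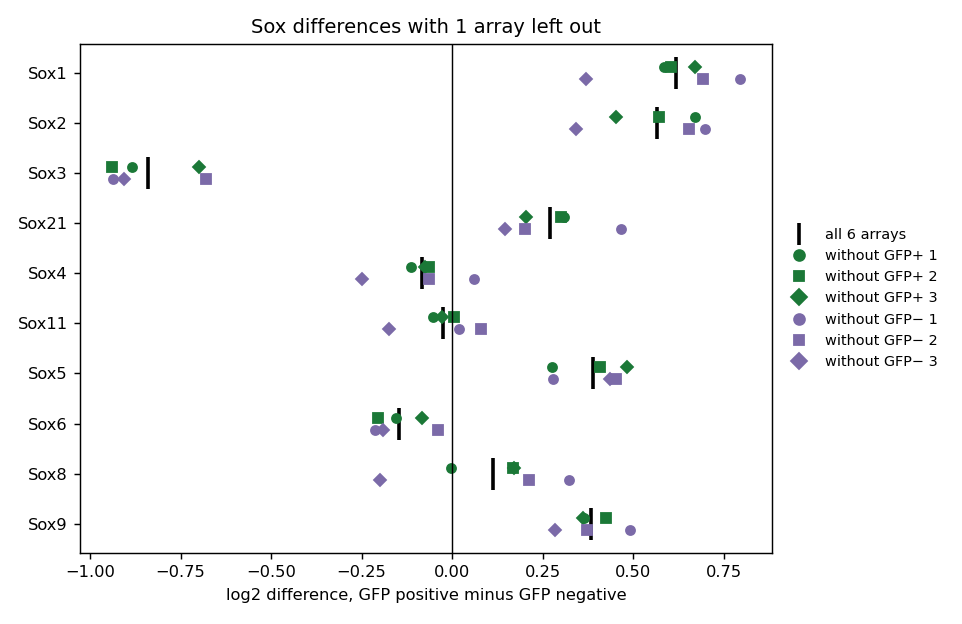
Log2 difference (GFP positive minus GFP negative) of each Sox gene with all 6 arrays (black bar) and with each array left out in turn. The differences of Sox1 and Sox2 are smallest without GFP negative replicate 3 (0.37 and 0.34), that of Sox8 crosses 0, and that of Sox3 stays between −0.94 and −0.68.

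Of the 10 other Sox genes looked up, all had a probe set and 1 was tested, Sox12 of group C. Sox12 measured 7.43, 7.16 and 7.27 in GFP positive cells, and 7.09, 7.33 and 8.24 in GFP negative cells, a difference of −0.27 (limma adjusted p = 0.730) that was 0.08 without GFP negative replicate 3. Sox10, the oligodendrocyte factor of group E, lay at background on every array (2.40 and 2.38 on average in GFP positive and GFP negative cells). The endothelial factors Sox17 (2.11 and 2.09) and Sox18 (2.26 and 2.21) did too, and Sox13 of group D stayed near it (3.72 and 3.64).

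The genes whose signal ran most like that of Sox3 over the 6 arrays were Lancl2 (Pearson r = 0.997), Rbpj (0.995), the DNA-binding effector of Notch signalling, and Alkbh1 (0.995). For Sox1 they were Irf2bpl (0.995), Cryz (0.9902) and Adgrl3 (0.99). For Sox2 they were Glul, glutamine synthetase (0.997), Rnf180 (0.997) and Rnf13 (0.997). With Sox3, Sox1 and Sox2, 7, 3 and 7 of the tested genes had r above 0.99, and 121, 96 and 128 had r above 0.95. Clone and predicted gene names were left out of the ranking and of these counts. The correlations describe these arrays, which share the array differences given above.

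Genes tied to Sox factors by general knowledge were set beside the family, in lists that share some members (Gfap and Nr2e1 among them). Here and below, the counts of list members that rose or fell are of those with a limma adjusted p under 0.05. Of all tested genes 2.35% rose and 2.11% fell by that rule. Of 22 tested partners and targets of SOX9 and gliogenesis, 5 rose and 0 fell, with a median difference of 0.55, beside 0.0049 for all tested genes. Sparcl1, an astrocyte matrix protein, rose by 2.23 (limma adjusted p = 0.0122). Gfap, the astrocyte intermediate filament, rose by 1.501 (0.0188), Aqp4, the water channel, by 1.48 (0.0116), and Slc1a2, a glutamate transporter, by 1.22 (0.0163). Nfia and Nfib, which act with SOX9 in gliogenesis, differed by 0.10 and 0.21 and did not pass (limma adjusted p = 0.839 and 0.579). Dropping a GFP positive array left 0 (replicate 1), 1 (replicate 2) or 0 (replicate 3) of these calls, and dropping a GFP negative array gave 4 (replicate 1), 3 (replicate 2) or 9 (replicate 3). Over all tested genes the number higher moved too, to 2, 40 and 1 with GFP positive replicate 1, 2 or 3 dropped and to 158, 70 and 801 with GFP negative replicate 1, 2 or 3 dropped, so the list's counts follow those of all genes. With the 3′ to 5′ signal as a covariate 0 of the list passed and 9 of all tested genes were higher. In that fit 12 of the list were higher at an unadjusted limma p under 0.05. That fit also left 0 calls in the SOX2, SOX4 and SOX11, HMG-box and mitosis lists described next. In the SOX2 list 3 genes were higher at an unadjusted limma p under 0.05. In the other lists, in that order, 4, 3 and 24 were lower at that p. List members that moved the other way were not counted in these fits. Of all tested genes 12.9% had such a p in the covariate fit, but in either direction, so the shares are not like for like. Where no SOX9 list call was left with an array dropped, some members were still higher at an unadjusted limma p under 0.05. They were 13 with GFP positive replicate 1 dropped and 10 with replicate 3 dropped. Of all tested genes 13.9% and 12% had such a p in those fits, again in either direction.

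Of 21 tested partners and targets of SOX2, 2 rose and 0 fell past the threshold, with a median of −0.01. By sign alone 10 differences were positive and 11 negative. At an unadjusted limma p under 0.05, 5 were higher and 3 lower, against 9.92% and 8.28% of all tested genes. Nr2e1, the nuclear receptor also called Tlx, which keeps neural stem cells self-renewing, measured 11.49, 11.40 and 11.46 in GFP positive cells, and 10.64, 10.60 and 10.52 in GFP negative cells, a rise of 0.86 (limma adjusted p = 0.0308). Gli2, an effector of Hedgehog signalling, rose by 1.46 (limma adjusted p = 0.0192). Among the POU factors listed as partners of SOX2, Pou3f2 and Pou3f3 differed by 0.47 and 0.35 (limma adjusted p = 0.384 and 0.331). Pou3f1 and Pou3f4 differed by −0.78 and −0.83 (limma adjusted p = 0.178 and 0.305), and none of these POU factors passed. The call of Nr2e1 held without GFP negative replicate 3 and with no other array left out, and that of Gli2 held without GFP negative replicate 1 or 3.

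Of 16 tested genes listed as targets and partners of SOX4 and SOX11, not all of them particular to neurons, 0 rose and 2 fell, with a median of −0.37. Elavl4, an RNA-binding protein of neurons, fell by 1.59 (limma adjusted p = 0.0474). Ezh2, the Polycomb methyltransferase, fell by 0.91 (0.0264). Dcx, a microtubule protein of immature neurons, lay at background on every array (2.43 and 2.42 on average), as did Stmn2 (2.69 and 2.65). These were among the 8 of 24 listed genes that were not tested. Differences of the 16 tested ones were positive for 5 and negative for 11. The brightest were Cd24a (13.08 and 13.48 on average in GFP positive and GFP negative cells) and Map2 (12.46 and 12.80). The calls of Elavl4 and Ezh2 held without GFP negative replicate 3 and were lost with any other array left out (limma adjusted p 0.0526 to 0.162).

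Of 9 tested oligodendrocyte lineage genes 0 passed, with a median of −0.20. Of these 9, 3 were lower at an unadjusted limma p under 0.05, against 8.28% of all tested genes. Ptprz1, a receptor phosphatase, and Cnp, a myelin enzyme, the brightest of them, differed by 0.19 and 0.37 (limma adjusted p = 0.787 and 0.289) and were the only 2 with a positive difference. The 3 lower ones, chosen after their values were seen, were the progenitor proteoglycan Cspg4 (−1.31, limma adjusted p = 0.134), the transcription factor Nkx2-2 (−1.06, 0.0570) and the growth factor receptor Pdgfra (−0.54, 0.217). Of 21 tested genes with an HMG box outside the Sox family 0 rose and 2 fell, with a median of −0.10. Wdhd1, a replication protein, fell by 2.21 (limma adjusted p = 0.0256) and Hmgb3, a chromatin protein of stem cells, by 1.29 (0.0308). Both calls were lost without any 1 GFP positive array or without GFP negative replicate 2.

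**Figure D5:**
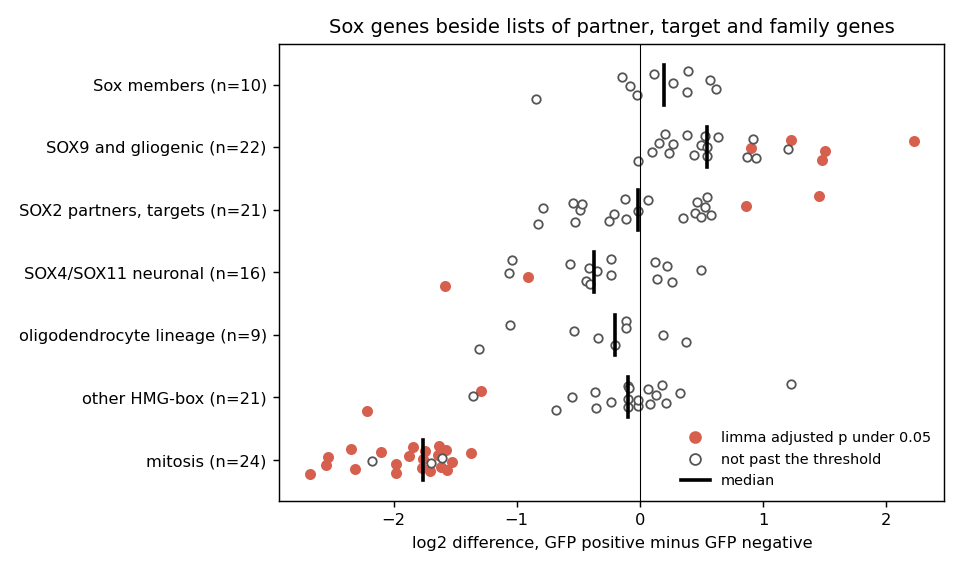
Log2 difference (GFP positive minus GFP negative) of the 10 Sox genes above lists of SOX partners and targets, other HMG-box genes and mitosis genes; filled points passed the limma threshold and the bar is the median. The Sox genes lie between −0.84 and 0.62, the SOX9 list has its median at 0.55 and the mitosis list at −1.76.

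Markers of dividing cells and of other cell types are given because they could move with the Sox values; their part was not tested. Of 24 tested mitosis genes 21 fell and 0 rose (20 of 23 without Plk1, a mitotic kinase below log2 4 on all GFP positive arrays and tested only through its GFP negative values), and the log2 of their summed signal spanned 11.36 to 11.99 in GFP positive cells and 13.18 to 13.82 in GFP negative cells. The largest differences were those of Ttk (−2.68), Cenpe (−2.55), Cenpf (−2.54) and Bub1 (−2.34), and the count of 21 was 0 (replicate 1), 10 (replicate 2) or 0 (replicate 3) with a GFP positive array dropped and 15, 3 or 22 with GFP negative replicate 1, 2 or 3 dropped. Over all tested genes the number lower moved too, to 0, 66 and 0 with GFP positive replicate 1, 2 or 3 dropped. It was 196, 36 and 443 with GFP negative replicate 1, 2 or 3 dropped. Where the mitosis count was 0, all 24 were lower at an unadjusted limma p under 0.05. Of all tested genes 13.9% and 12% had such a p there, in either direction. Of 10 tested neural stem cell markers 2 rose (Gfap and Nr2e1) and 0 fell, and the brightest, Vim, measured 15.22 and 15.15. Of 11 microglia and macrophage markers with a probe set 2 were tested, of 11 endothelial markers 1, of 10 pericyte and smooth muscle markers 1, of 10 ependymal and choroid plexus markers 5, and of 12 mature neuron markers 5. Among these, Acta2, the smooth muscle actin, alone passed (−1.29, limma adjusted p = 0.0413), and it did so with GFP negative replicate 1 or 3 dropped but with no other array dropped. Acta2 lay at the edge of background in GFP positive cells (4.19, 3.92 and 3.76). It met the filter through its GFP negative values (4.79, 5.68 and 5.26), which limits its call. The brightest of the others averaged 6.95 and 6.98 in GFP positive and GFP negative cells for Cd68 and 4.48 and 4.46 for Csf1r (microglia), and 4.17 and 4.09 for Flt1 (endothelium). Rarres2 (7.68 and 7.74) and Dynlrb2 (6.79 and 6.07) led the ependymal list, and Gad1 (8.49 and 7.94) and Syn1 (6.88 and 7.28) the neuronal one, with limma adjusted p from 0.220 (Dynlrb2) to 0.973 (Cd68). The log2 summed signal of GFP positive and GFP negative arrays was 7.60 to 7.83 and 7.38 to 7.83 for microglia, 6.12 to 6.28 and 6.01 to 6.31 for endothelium, 8.68 to 9.20 and 8.30 to 9.54 for ependyma, and 9.49 to 9.84 and 9.58 to 9.89 for neurons. For pericytes it was 6.27 to 6.45 and 6.46 to 6.88.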

How the data were processed

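RNA of 3 GFP positive and 3 GFP negative samples was hybridised to Affymetrix arrays. Per the submitters' processing notes, the authors computed the deposited log2 signals with GCRMA, whose version no source used here names. GCRMA pulls dim probe sets toward a floor and assumes like signal distributions on all arrays. No normalization was added. The platform annotation names exactly 1 gene for 34945 of 45101 probe sets; the gene identifiers of all 10 Sox genes matched RefSeq (GRCm38.p6).

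Testing needed a value of log2 4 or more on at least 3 of 6 arrays. The comparison used lmFit and eBayes of limma 3.58.1 (R 4.3.3) with no covariate, Benjamini-Hochberg adjusted over 10531 genes, threshold 0.05, and the procedure was tested on simulated data. The members, lists and tests were chosen with earlier results of these data known. Named by rule were all Sox members, up to 4 list members per direction past the threshold or else the 2 brightest, and the 3 genes nearest in pattern to the 3 members of smallest p. Further names were picked with their values in view. These were Sox10, Sox13, Sox17, Sox18, Sox2ot, Nfia, Nfib, Pou3f1, Pou3f2, Pou3f3, Pou3f4, Dcx, Stmn2, Cd24a, Map2, Vim, Cspg4, Nkx2-2, Pdgfra and Plk1. Other filters, normalizations, probe sets, eBayes settings, array weights, a replicate block and dropping each array were tried; the 3′ to 5′ covariate was chosen after seeing the data.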

Additional observations from a re-analysis of the deposited data

How the results depend on the processing

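Of 160 values of the 10 Sox genes over 16 alternatives, 149 kept their direction and their side of the threshold, 10 changed sign and 1 passed, Sox3 with array weights, which gave 1 lower Sox gene. No Sox gene was higher under any of them, and the count with an array left out in turn was 0 to 0 in either direction. Some of these fits called few genes of any kind, so a count of 0 says little there. Without GFP positive replicate 1 or 3, limma called 2 and 1 of 10531 genes higher and 0 lower. Without GFP negative replicate 3 it called 801 higher and 443 lower. No sign change passed a threshold. Sox4 was 0.0614 without GFP negative replicate 1. Sox11 was 0.0425 with a common median and 0.0499 with the 3′ to 5′ covariate, and −0.175 to 0.0807 with 1 array left out (positive without GFP positive replicate 2, GFP negative replicate 1 or GFP negative replicate 2). Sox6 was 0.468 from its probe set of smallest p. Sox8 was −0.198 with array weights and −0.200 to 0.323 with 1 array left out (negative without GFP positive replicate 1 or GFP negative replicate 3). Sox12 was 0.0753 without GFP negative replicate 3.

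Replicates of the groups shared a number, and the labels do not say whether same-numbered ones were paired. Correlations of same-numbered deviations were −0.25, 0.05 and −0.50, and 1 of 6 arrays correlated best with its own number. With so few arrays behind each group mean, these correlations cannot decide the pairing. The replicate block gave 0 Sox genes in either direction (Sox3 limma adjusted p = 0.193) and 0 calls in the SOX9, SOX2, SOX4 and SOX11, HMG-box and mitosis lists, as did the 3′ to 5′ covariate. At an unadjusted p under 0.05 limma counted 10, 2, 3, 3 and 24 with the block and 12, 3, 4, 3 and 24 with the covariate. These list counts are of higher members for the SOX9 and SOX2 lists and of lower members for the others. Over all genes limma called 19 higher and 8 lower with the block and 9 and 0 with the covariate. In each of these fits 12.9% of all tested genes had an unadjusted limma p under 0.05, in either direction. The SOX9 list had 9 higher members with all probe sets, 9 with trend and robust settings and 12 with array weights. The SOX4 and SOX11 list had 1 lower member without a filter and 1 with all probe sets. The HMG-box list had 0 without a filter and 4 with array weights. Without a filter 4 of the list were lower at an unadjusted limma p under 0.05. Of all genes 13.6% had such a p there, in either direction. The mitosis list had 5 without a filter, and the oligodendrocyte list 1 with array weights. With 1 array left out the counts were 0 to 9 for the SOX9 list, 0 to 2 for SOX2, 0 to 2 for SOX4 and SOX11, 0 to 4 for HMG-box genes, 0 to 22 for mitosis and 0 to 1 for the oligodendrocyte list. The cause of these changes was not tested, beyond the fewer arrays or more genes that some settings entail. Probe sets near log2 4 carry little signal over background, which limits the 9 dim Sox probe sets.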
